A study of Caenorhabditis elegans with 2 samples.

Results

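Peaks of HLH-26 chromatin immunoprecipitation at small nucleolar RNA (snoRNA) genes of Caenorhabditis elegans were taken from the ranked peak list that compares 2 biological replicates. A peak was included when it overlapped a nuclear gene of biotype snoRNA, or lay within 200 bp of one, and did not lie within 200 bp of a tRNA gene. This gave 255 of the 35284 nuclear ranked peaks (35301 with the mitochondrial ones), of which 195 overlapped a snoRNA gene and 60 lay beside one. They reached 176 of the 346 nuclear snoRNA genes. The animals were of strain RW12174, in which an eGFP tag was inserted by CRISPR at hlh-26, with an unc-119(+) rescue in an unc-119(tm4063) background. Both replicates were whole young adults at 66 hours, synchronised by bleaching and L1 starvation, and tagged protein was precipitated with an antibody against GFP. They form 1 group, so no comparison of conditions is possible, and an untagged control was not analysed here. Whole animals pool all tissues, so a signal cannot be placed in a cell type.

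SnoRNAs guide the chemical modification of other RNAs, mostly ribosomal RNA: those of the C/D class direct 2′-O-methylation and those of the H/ACA class direct pseudouridylation. Many are processed from introns of host genes, while others are transcribed from their own promoters. RNA polymerase III reads tRNA genes through internal promoter elements called the A box and the B box, and in worms such elements are also known upstream of some snoRNA genes. HLH-26 belongs to the REF-1 family of basic helix-loop-helix (bHLH) proteins, a class of transcription factors that bind short E-box or N-box sequences.

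Some snoRNA genes held letters of the A and B boxes upstream, in the order of a tRNA gene: 6 of the 19 genes near a peak past the threshold did, and the genes of the 2 strongest peaks did not. Sequences of both kinds are shown first because results below refer to them. Capitals mark each match on the gene strand to TGGCNNA, the core of an A box, or to GTTCNA, the core of a B box. Each line gives the 90 bases directly before a snoRNA gene, 5′ to 3′ on the gene strand, from the RefSeq sequence of WBcel235 (ce11). The examples and the core letters were chosen after the values were seen. The 5 genes with both cores and a peak past the threshold of the irreproducible discovery rate (IDR, which is low where both replicates rank a peak alike), apart from genes on the first chromosome, were T03F7.8 (chrV:11314168-11314257, plus strand), W03C9.9 (chrII:11960808-11960897, plus), F32E10.10 (chrIV:7574032-7574121, plus), T06C12.16 (chrV:15873927-15874016, minus) and C04G6.12 (chrII:5105232-5105321, minus).
T03F7.8: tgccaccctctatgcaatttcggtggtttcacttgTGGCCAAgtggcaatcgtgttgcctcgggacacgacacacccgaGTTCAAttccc
W03C9.9: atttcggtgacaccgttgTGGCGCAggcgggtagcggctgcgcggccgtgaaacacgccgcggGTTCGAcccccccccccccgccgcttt
F32E10.10: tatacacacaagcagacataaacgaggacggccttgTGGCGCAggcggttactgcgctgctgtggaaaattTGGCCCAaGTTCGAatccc
T06C12.16: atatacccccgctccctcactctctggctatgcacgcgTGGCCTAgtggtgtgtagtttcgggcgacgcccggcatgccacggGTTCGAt
C04G6.12: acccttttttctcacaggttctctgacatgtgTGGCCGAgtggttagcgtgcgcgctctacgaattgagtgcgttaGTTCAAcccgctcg

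For contrast, the next lines show genes past the threshold that lacked the ordered pair, and one gene, Y59E1B.14, that held the pair and had no peak. These were Y75B12B.12 (chrV:15191094-15191183, minus strand), C27H5.9 (chrII:7184079-7184168, minus), F19H8.6 (chrII:14617053-14617142, plus), ZK994.7 (chrV:8500489-8500578, plus) and, without a peak, Y59E1B.14 (chrX:1891419-1891508, plus). Y75B12B.12 held the B core alone and the other 3 with a peak held the A core alone.
Y75B12B.12: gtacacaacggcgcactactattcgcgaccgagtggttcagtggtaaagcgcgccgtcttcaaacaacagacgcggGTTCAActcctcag
C27H5.9: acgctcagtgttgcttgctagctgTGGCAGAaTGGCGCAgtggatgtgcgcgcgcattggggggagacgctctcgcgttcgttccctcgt
F19H8.6: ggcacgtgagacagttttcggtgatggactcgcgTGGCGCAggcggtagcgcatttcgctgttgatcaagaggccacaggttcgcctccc
ZK994.7: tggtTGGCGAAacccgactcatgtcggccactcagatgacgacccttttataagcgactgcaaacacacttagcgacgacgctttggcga
Y59E1B.14: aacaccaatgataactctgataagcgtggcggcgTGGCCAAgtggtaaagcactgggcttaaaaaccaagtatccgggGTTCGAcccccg

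The peak of highest signal covered all of C51F7.4 and part of C51F7.3, 2 annotated snoRNA genes in frm-7. C51F7.4 (chrV:12303599-12303693, plus strand) is annotated directly upstream of C51F7.3 (chrV:12303708-12303783, plus). The whole of C51F7.4 is printed with capitals on its 2 matches to the longer B box GTTCNANNC, which begin 70 and 44 bases before C51F7.3. C51F7.3 and W03C9.9 (chrII:11960898-11960959, plus) are printed as genes, with capitals on TGATGA (box C) near the 5′ end and CTGA (box D) near the 3′ end, the letters that define the C/D class.
C51F7.4: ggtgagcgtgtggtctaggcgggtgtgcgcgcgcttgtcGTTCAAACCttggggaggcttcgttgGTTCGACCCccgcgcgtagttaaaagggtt
C51F7.3: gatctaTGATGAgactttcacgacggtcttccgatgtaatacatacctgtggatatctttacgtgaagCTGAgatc
W03C9.9 gene: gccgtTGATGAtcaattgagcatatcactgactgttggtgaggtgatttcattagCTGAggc

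About as many snoRNA genes had a ranked peak as did not. A peak lay within 200 bp of 50.9% of them (176 of 346, exact Clopper-Pearson 95% interval 45.5 to 56.3%). By the same distance, 417 of 612 tRNA genes (68.1%), 59 of 129 genes for spliceosomal and related snRNAs (45.7%), 105 of 261 miRNA genes (40.2%) and 4776 of 19973 protein-coding gene starts (23.9%) had one. Of all nuclear positions, 22.3% lay within 200 bp of a ranked peak, and 24.5% of midpoints would bring a gene of the median snoRNA length of 130 bp within reach. Intervals here cover counting error over genes or peaks only, and genes are not replicates of the experiment.

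Peaks at snoRNA genes also ranked above the bulk of the list. The signal, which the authors' peak caller gave to each peak on a scale that is not stated, had a median of 33.2 over the 255 peaks (quartiles 21.2 and 50.3, range 10.2 to 230.1) and of 25.95 over all nuclear ranked peaks. It was 32.8 over the 566 peaks at tRNA genes, 34.5 over the 96 at snRNA genes and 30.9 over the 142 at miRNA genes, so the typical snoRNA peak had a signal close to that of the other short RNA genes. In the conservative thresholded list were 18 of the 255 peaks (7.06%), against 76 of 35284 nuclear ranked peaks (0.215%), 12 of 566 at tRNA genes (2.12%) and 4 of 96 at snRNA genes (4.17%). At the looser score of 540 or more there were 32 (12.5%), against a background of 0.774%. Among the 100 nuclear peaks of highest signal, 19 lay at snoRNA genes.

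The 3 peaks just inside the 200 bp limit of the rule, 194 to 199 bp from T04A8.17, Y71F9AL.24 and F19H8.7, had signals of 31.4, 52.4 and 38.0. The 3 just outside, 207 to 209 bp from Y41D4B.36, K02A11.12 and F18A1.11, had signals of 28.5, 24.8 and 36.0. The tRNA rule removed 2 peaks.

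Peaks were found at intronic and at intergenic snoRNA genes. A gene was called intronic when it lay inside an intron of a protein-coding gene and over no protein-coding exon (169 genes). This held even where it also overlapped a gene of another kind, as T03F7.8 and F19H8.6 did. A gene was called intergenic when it overlapped no protein-coding gene and no gene of another kind (108). All remaining genes were called other (69), such as those over an exon, or over a gene of another kind outside introns. A peak was found at 95 intronic genes (56.2%, interval 48.4 to 63.8%), at 48 intergenic genes (44.4%, 34.9 to 54.3%) and at 33 of the others (47.8%, 35.6 to 60.2%). The difference between the classes was not tested. Positions within 200 bp of a ranked peak made up 21.0% of introns and 17% of the sequence between genes. The median signal was 31.9 over 127 intronic peaks, 34.2 over 76 intergenic peaks and 33.4 over 52 others. Ranked peaks elsewhere had a median of 25.3 both where the summit lay in an intron and where it lay between genes. Past the threshold were 8 intronic, 5 intergenic and 5 other peaks.

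**Figure D1:**
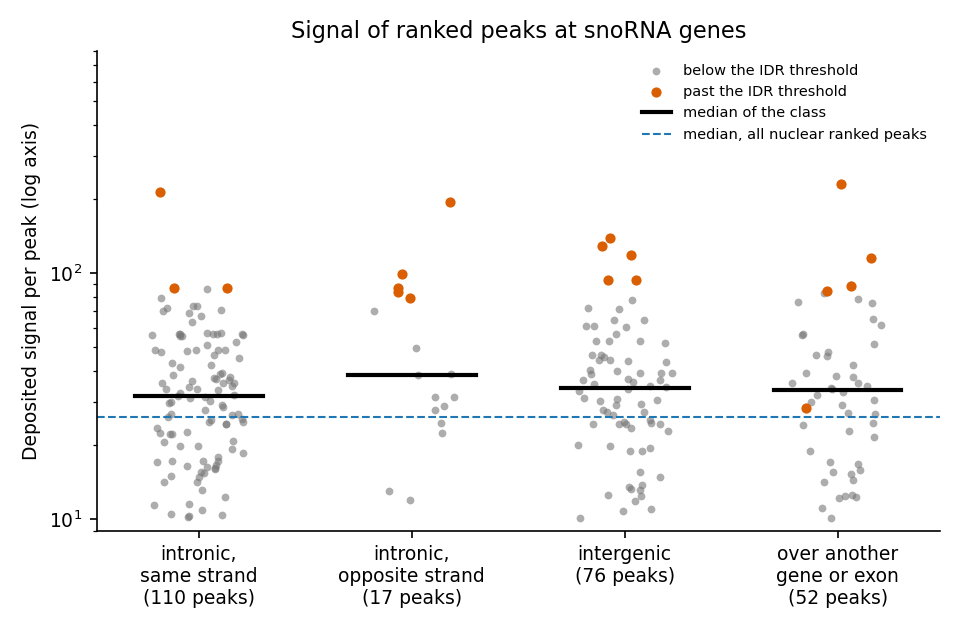
Deposited signal of each of the 255 peaks (points, log axis) by the position of the snoRNA gene and its strand relative to the host gene; black bars are class medians and the dashed line is the median of 25.95 over all nuclear ranked peaks. Peaks past the IDR threshold (orange) make up 5 of 17 in introns on the opposite strand and 3 of 110 on the same strand.

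Within introns, genes were split by strand relative to the host. SnoRNA genes processed from a host transcript must lie on the host's strand, as 142 of the 169 did, and 27 lay on the opposite strand. A peak lay at 83 of the 142 (58.5%, interval 49.9 to 66.7%) and at 12 of the 27 (44.4%, 25.5 to 64.7%). The strongest peak at each gene had a median signal of 37.6 on the same strand and 74.6 on the opposite strand. Past the threshold were 4 of the 142 (2.82%, 0.773 to 7.06%) and 6 of the 27 (22.2%, 8.62 to 42.3%). C27H5.9 and C27H5.10, both on the opposite strand, share 1 peak, so that 5 of 17 peaks on the opposite strand were past the threshold. On the same strand 3 of 110 peaks were, because the strongest peak near C51F7.3 was assigned to C51F7.4, which is classed as other. In the other ranked list of the series, the intronic genes nearest to a summit past its threshold were T03F7.8 and C27H5.9 on the opposite strand and ZK994.7 on the same strand. This split was made after the values were seen. Gene length moved with it in part: among genes of at most 80 bp, 7 of 9 on the opposite strand had a peak with a median strongest signal of 86.8, and 19 of 25 on the same strand had one with a median of 48.8.

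The peaks past the threshold were led by a few loci on chromosome V. At C51F7.4 in frm-7, which encodes a FERM-domain protein, the signal was 230.1, with 118.3 in the list of replicate 1 and 107.5 in that of replicate 2. This gene was classed as other because its first base is shared with an exon of a frm-7 transcript, and C51F7.3 beside it is intronic and lies within reach of the same peak. At ZK994.7 in pxn-1, which encodes a peroxidasin of the extracellular matrix, the signal was 214.6, with 120.8 and 92.1 in the 2 replicates. T03F7.8, inside cutl-18 on the opposite strand, had a signal of 194.1, with 110.3 and 77.9. These were the 3 highest values of the set in each replicate.

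Among intergenic genes, W03C9.9 had the highest signal, 138.7, with 73.8 in replicate 1 and 65.3 in replicate 2. It is one of 15 snoRNA genes with both C and D box letters. Y75B12B.12 followed at 128.6 (61.7 and 65.7), and it was the one peak of the 18 whose summit was also near a protein-coding start (at most 500 bp before it or 100 bp after it). ZK265.10 had 118.9 (56.6 and 64.5), F32E10.10 had 93.7 (40.7 and 47.5) and T06C12.16 had 93.6 (51.3 and 43.8). All 5 therefore had values in both replicates, and neither replicate was higher throughout.

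The remaining peaks past the threshold had signals from 78.9 to 115.5, apart from 1 of 28.3. Y23H5B.10 and T19B4.8, which overlap other genes, had 115.5 and 89.0. In introns, the peak shared by C27H5.9 and C27H5.10 in pdl-1, whose product is a homolog of a prenyl-binding PDE6D subunit, had 99.6. Peaks in mltn-9 (F19H8.6), unc-41 (C27H6.5, in the gene of a stonin-like endocytic adaptor), twk-5 (B0334.12, in a potassium channel gene), mpk-2 (C04G6.12, in a MAP kinase gene) and haf-9 (ZK484.9, in a half-type ABC transporter gene) had 87.2, 87.1, 86.8, 84.1 and 78.9. H09I01.2 carried 2 overlapping peaks past the threshold, of 84.4 and 28.3, which rest on the same replicate peaks of 52.4 and 35.3 and are thus not independent.

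Below the threshold, the 5 strongest intronic genes all lay on the host's strand. They were F55A11.10 (86.3), T24H7.6 (79.0), C10C6.8 in catp-8 (73.9), Y37E3.20 in pcyt-2.1 (73.6) and F11A10.9 in rbm-34 (72.1). The 5 strongest intergenic ones were C17H12.36 (78.1), C53B7.8 (72.1), F30H5.4 (71.3), C46C2.8 (64.4) and R166.10 (64.3). At C17H12.36 and R166.10 the summit lay outside the gene, 403 bp downstream and 365 bp upstream of its 5′ end. At C53B7.8, F30H5.4 and C46C2.8 it lay at 0, -21 and 31 bp. The lowest signal of the set, 10.2, belonged to a peak 277 bp downstream of the 5′ end of F47G4.9. Counting each peak at the gene nearest its summit, genes with 3 peaks were C09H10.19, F22D6.16, F39B2.14, F54F11.6, H09I01.2, T09H2.2, T28B8.11 and ZK185.9, and the strongest of their peaks ranged from 19.9 at T28B8.11 to 84.4 at H09I01.2.

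Too few hosts of several snoRNA genes had a peak past the threshold to compare them with hosts of 1. There were 149 host genes, of which 133 held 1 snoRNA gene, 13 held 2 and 3 held more. A peak past the threshold lay in 8 of the 133 and in 1 of the 16 with several, pdl-1. Both snoRNA genes of pdl-1 lie on the opposite strand, and all other hosts of several held theirs on the same strand. The host with most was nol-56, the worm gene for a core protein of C/D snoRNA particles, and all 4 of its snoRNA genes were near a peak, with strongest signals of 56.8 (K07C5.18), 32.7 (K07C5.10) and a shared 33.6 (K07C5.12 and K07C5.11). In rpl-6, a ribosomal protein gene, all 3 were near a peak, of at most 20.8, and in top-2, a topoisomerase gene, all 3 were, of at most 30.2. None of these 3 hosts had a peak past the threshold. Ribosomal protein genes hosted 21 snoRNA genes in 14 hosts, of which 12 had a peak (57.1%) and 0 had one past the threshold. Over all intronic snoRNA genes on the host's strand these shares were 58.5% and 2.82%, so the ribosomal protein hosts were near that background.

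Short snoRNA genes had peaks more often than long ones, and stronger ones. Of 56 genes of at most 80 bp, 43 had a peak (76.8%, interval 63.6 to 87.0%) and 16 had one past the threshold (28.6%, 17.3 to 42.2%). Of 290 longer genes, 133 had a peak (45.9%, 40.0 to 51.8%) and 3 had one past the threshold (1.03%, 0.214 to 2.99%), namely C51F7.4, Y75B12B.12 and Y23H5B.10. The median strongest signal was 67.1 at short genes and 35.9 at long genes. The limit of 80 bp was set after the values were seen.

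**Figure D2:**
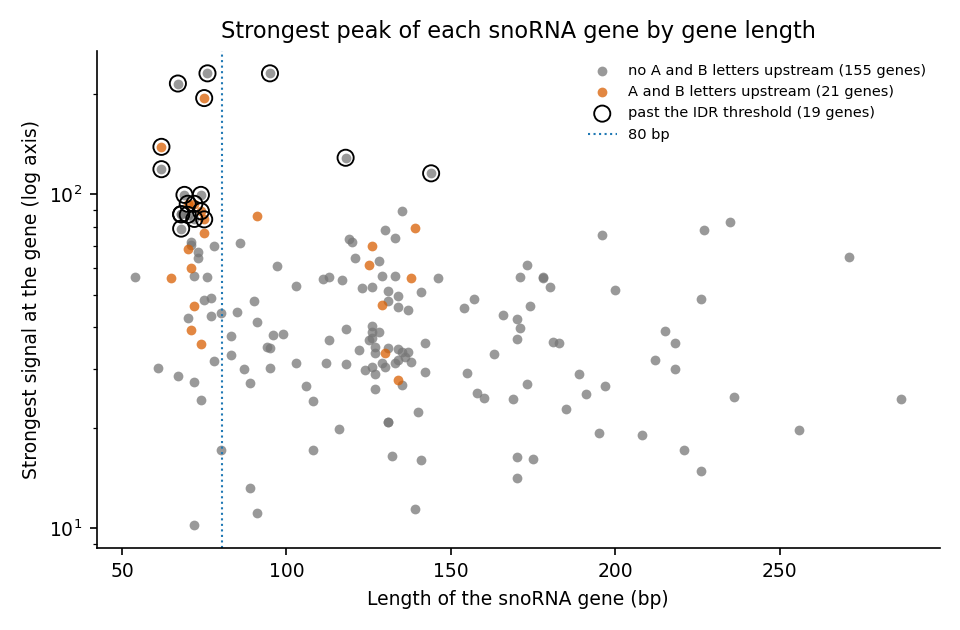
Strongest signal (log axis) at each of the 176 snoRNA genes with a peak against gene length in bp; orange points hold the A and B cores upstream, circles mark genes past the IDR threshold and the dotted line marks 80 bp. Of the 19 circled genes, 16 lie at or left of the line.

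The box letters that define the 2 snoRNA classes went together with length. The median length was 133 bp with H/ACA letters and 78 bp with C and D box letters. Their median strongest signals, given below, were near the 35.9 of long genes and the 67.1 of short genes. The share of H/ACA genes with a peak was above the 45.9% of long genes. The part of class apart from length was not tested. Letters of the H/ACA class (ACA followed by 3 bases at the 3′ end) were found in 75 genes, of which 52 had a peak (69.3%, interval 57.6 to 79.5%), with a median strongest signal of 35.8 and 0 past the threshold (upper limit 4.80%). In the other ranked list of the series, Y53F4B.48 and W01C9.6, both with H/ACA letters, were past its threshold. C and D box letters were found in 15 genes, of which 9 had a peak, with a median of 70.2 and 2 past the threshold. The other 256 genes matched neither pattern, and 115 of them (44.9%) had a peak and 17 had one past the threshold. With so many genes unmatched, these strict letters do not assign the class of most snoRNAs.

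The A and B cores were concentrated at fixed places before snoRNA genes. An ordered pair, with GTTCNA beginning 25 to 75 bases after TGGCNNA in the 250 bases upstream on the gene strand, was present at 24 of 346 snoRNA genes (6.94%). The same window held it at 119 of 19972 protein-coding starts (0.596%), 5 of 261 miRNA genes (1.92%), 3 of 129 snRNA genes (2.33%) and 7 of 612 tRNA genes (1.14%), whose own boxes lie inside the gene. In the 24 genes the B core began at a median position of -14.5 relative to the gene, and in 21 of them within the last 30 bases. The A core began at a median position of -59.5. The pair was defined after the upstream sequences of the strongest genes had been read, so those genes helped to choose it.

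**Figure D3:**
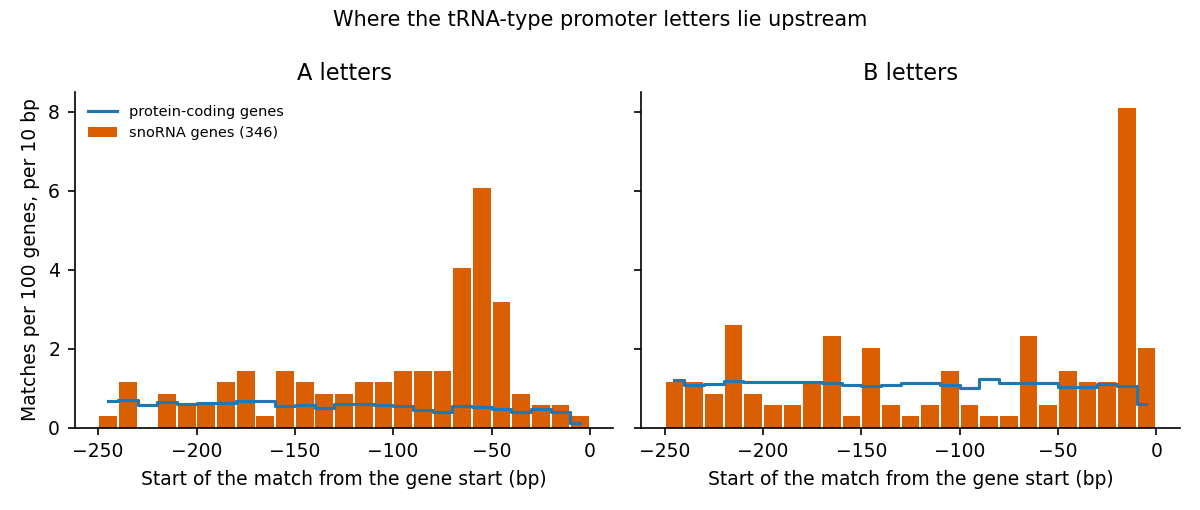
Matches to TGGCNNA (A letters) and GTTCNA (B letters) per 100 genes in bins of 10 bp over the 250 bp before 346 snoRNA genes (orange bars) and protein-coding starts (blue line), on the gene strand. The highest bins are 8.09 B matches per 100 genes, from 20 to 10 bp before the gene, and 6.07 A matches, from 60 to 50 bp before it.

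Genes with the pair had a peak more often. Since the pair was chosen from the strongest of these genes, the following values are a description and no test. A peak lay at 21 of the 24 (87.5%) and at 155 of the 322 without it (48.1%). The median strongest signal was 68.8 with the pair and 37.6 without. Past the threshold were 6 of the 24 (25%) and 13 of the 322 (4.04%). Short length and the pair went together in part: 13 of 13 short genes with the pair had a peak and 6 were past the threshold, while 30 of 43 short genes without it had a peak and 10 were past the threshold. Of 11 long genes with the pair, 8 had a peak and 0 were past the threshold. The part of each property in the signal was not tested.

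The single cores were counted too, with letters and windows taken from the same genes, so that a higher share at genes with a peak is partly built in. A B core in the last 30 bases was found at 34 of 176 genes with a peak (19.3%), 5 of 170 without (2.94%) and 2.71% of protein-coding starts. An A core 90 to 30 bases before the gene was found at 34 of 176 (19.3%), 16 of 170 (9.41%) and 2.56%. Either core was present at 12 of the 19 genes past the threshold, 26.7% of genes with a peak, 11.8% of those without and 67 of all 346. The longer B box GTTCNANNC, searched on both strands over the gene and its 250 upstream bases, was found at 26.1% of genes with a peak, 15.9% of those without, 10 of 19 past the threshold and 11.6% of protein-coding starts. With replicate 1 alone the shares with and without a peak were 23.3% and 19.4%, and with replicate 2 alone 30.6% and 13.2%.

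Letters of bHLH sites were counted in the same window. CACGTG, the palindromic E-box, was found at 7.95% of genes with a peak and 8.82% without, against 7.34% of protein-coding starts, and at 5 of the 19 past the threshold. CACGCG was found at 10.8% with a peak and 5.88% without, against 5.47%. CACNAG, an N-box form, was found at 51.1% and 38.8%, against 32.6%, and at 15 of the 19. Both strands were searched, so CTNGTG counted too. Upstream of T03F7.8, F32E10.10 and T06C12.16 such a match shares bases with the A core, so these counts are not independent of it. A match is only a description of the letters in this window.

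Summits of the strongest peaks lay closer to the snoRNA gene than those of weaker peaks. Most ranked peaks were 524 bp wide, so the rule itself allows a summit up to 462 bp from a gene. Over all 255 peaks the median summit lay 9 bp downstream of the 5′ end (quartiles -127.5 and 199.5), with medians of 20 bp at intronic, -0.5 bp at intergenic and -27.5 bp at other genes. These medians rest on the library: with replicate 1 alone they were 79.5 bp at intronic and 7 bp at intergenic genes, and with replicate 2 alone -21 and -8.5 bp. In the quartile of highest signal, 62.5% of summits lay within 100 bp of the 5′ end, and in the next quartiles 35.9%, 25.4% and 21.9% did. Within 100 bp of the gene's midpoint lay 57.8% of the highest quartile. Merging overlapping peaks left 165, so some weaker peaks overlap a stronger one at the same gene. At T06C12.16, for example, the summits lay at -7 bp (signal 93.6) and -211 bp (44.2). Such side peaks have summits displaced from the stronger one, so the trend over quartiles is partly built in. Of the 18 past the threshold, 15 lay within 100 bp of the 5′ end, with a median of -14 bp, and 15 within 100 bp of the midpoint, so the 5′ end is not singled out. The farthest summits lay at -460 bp from the 5′ end of F19H8.7 in tps-2 and at 661 bp from that of Y92C3B.4 in uaf-1, with signals of 38.0 and 19.8.

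**Figure D4:**
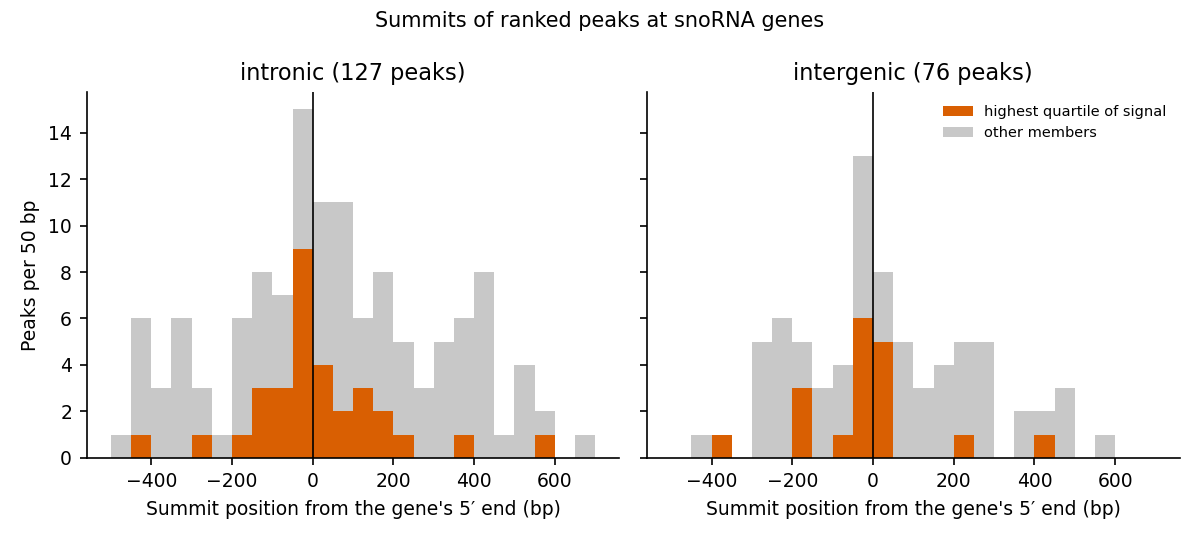
Summit position in bp from the 5′ end of the snoRNA gene, in the direction of the gene, for 127 intronic and 76 intergenic peaks in bins of 50 bp; orange marks peaks in the highest quartile of signal. In both classes the highest quartile has a median of -9.5 bp.

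At genes with the A and B pair, the strongest summit lay upstream in 17 of 21 cases, with a median of -33 bp, and within 60 bp of the B core in 17. At genes without the pair the median was 20 bp, and 68 of 147 summits lay upstream. Among all 255 peaks, 48 (18.8%) had a summit at most 500 bp before or 100 bp after a protein-coding start. Of all nuclear ranked peaks, 14.5% did.

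Each replicate's own ranked list covered most of these peaks. Of the 255, 192 (75.3%) were overlapped by a ranked peak of replicate 1, 190 (74.5%) by one of replicate 2, 147 (57.6%) by both and 20 by neither. Over all nuclear ranked peaks the shares were 51.9%, 54.9% and 31.1%. All 18 past the threshold were overlapped in both, which the IDR rule itself favours. In the highest quartile of signal 90.6% and 95.3% were, and in the lowest 57.8% and 60.9%. Called on its own, replicate 1 put 4 peaks at snoRNA genes past its threshold (ZK994.7, C51F7.4, T03F7.8 and W03C9.9) out of 8 nuclear ones, with a background of 0.0413% of its ranked peaks. Replicate 2 put 4 (C51F7.4, ZK994.7, T03F7.8 and ZK265.10) out of 12, with a background of 0.0494%. The first 3 genes were thus common to both.

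**Figure D5:**
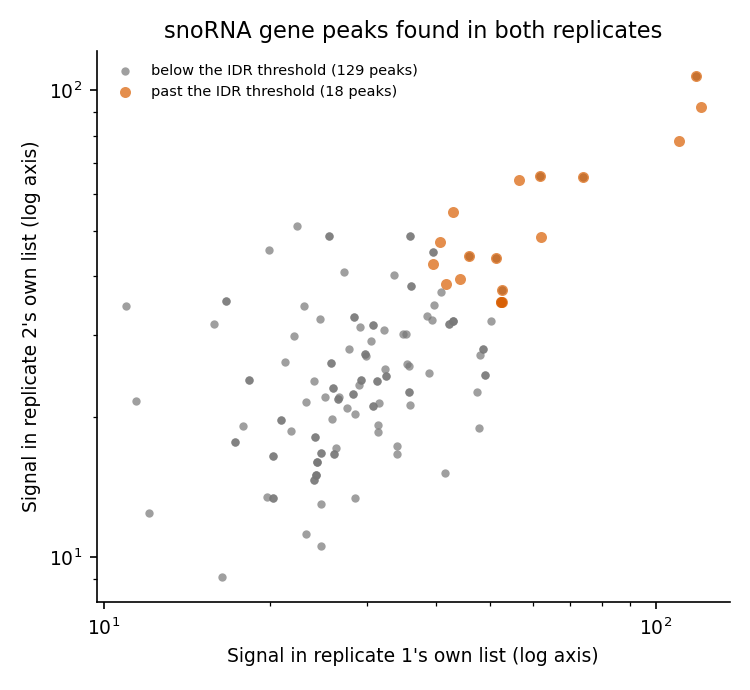
Signal in each replicate's own list (log axes) for the 147 peaks overlapped in both; orange marks the 18 past the IDR threshold. The 3 highest points in both replicates are C51F7.4, ZK994.7 and T03F7.8.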

How the data were processed

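Peak lists of HLH-26-eGFP ChIP-seq from 2 replicates were used as deposited, on ce11. The authors ranked peaks by the irreproducible discovery rate and deposited ranked and thresholded lists, per the labels. For the aligner, peak caller, control and versions: not given in the sources used here. The deposited score is a rescaled rate of at most 1000, the deposited signal is the authors' enrichment per peak on an unstated scale, and the deposited −log10 values are local and global rates. The 2 lists compared in the ranked list share intervals with replicates 1 and 2 (19059 and 19975 of 35301 peaks). The 4 columns of compared-list signals in the series lists name no sample and were not used; replicate signals come from each replicate's own list. Lists hold no read counts, so depth is unknown.

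Gene positions are those of Ensembl release 115 and sequences those of RefSeq, both for WBcel235, with chromosome names translated. A peak was assigned to the snoRNA gene nearest its summit. Coordinates are 1-based. The genes named are those past the threshold, the 5 strongest intronic and intergenic genes below it, genes with 3 or more peaks, hosts with 3 or more snoRNA genes, and extremes of signal and position; other genes named were chosen after their values were seen. Members, lists and rules were chosen with earlier results of these data known. With 1 group, values are described with exact 95% intervals and no p-value. Alternatives covered the window, the summit, the tRNA rule, merging, another list, each replicate alone and the score; leaving out long genes or peaks at protein-coding starts, and the A and B pair, were added after seeing the data. Assignment was tested on simulated data. Python 3.11.15, numpy 2.4.6, pandas 2.3.3, scipy 1.17.1 and matplotlib 3.10.9 were used.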

Additional observations from a re-analysis of the deposited data

How the results depend on the processing

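Over 15 alternatives, 143 of 205 recomputed values were counted as unchanged and 62 as moved. Shares were judged by their interval and counts by 1.5-fold. Medians were judged otherwise. A signal ratio going from 1.32 to 1.33 counted as moved, and intronic summits going from 20 to 79.5 or -21 bp counted as unchanged. The cause was not tested unless the alternative's own construction gives it. The number of peaks, 255, became 169 with the summit within 200 bp, 165 after merging, 32 at a score of 540 or more and 62 without genes over 80 bp. The share of genes with a peak, 50.9%, became 42.5% by overlap alone, 62.4% within 500 bp, 38.2% by summit, 8.67% by score, 42.5% without peaks at protein-coding starts, 76.8% without long genes and 43.4 to 45.4% with 1 replicate left out. For intronic genes it became 43.8%, 68.0%, 37.9%, 9.47%, 47.3% and 76.5% in that order, and 47.9 to 50.3% with 1 replicate left out. For intergenic genes it became 56.5% within 500 bp, 7.41% by score and 73.3% without long genes. By summit the order turned, with 37.9% of intronic and 38.9% of intergenic genes. Intronic peaks past the threshold fell from 8 to 3 with hosts on the same strand only.

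The median signal over the list's median, 1.23 at intronic genes, became 1.38 by overlap, 1.16 within 500 bp, 1.34 by summit, 1.46 merged, 1.08 by score, 1.28 without protein-coding starts, 1.76 without long genes and 1.14 to 1.15 in single replicates. At intergenic genes, 1.32 became 1.37 by overlap, 1.33 within 100 bp, 1.20 within 500 bp, 1.42 by summit, 1.34 with peaks near tRNA genes kept, 1.39 merged, 1.20 in the other list, 1.23 by score, 1.70 without long genes and 1.20 to 1.22 in single replicates. The median intergenic summit, -0.5 bp, moved to 30.5 bp by summit and -17 bp without long genes. With 1 replicate left out it ran from -8.5 to 7 bp, and the intronic one, 20 bp, from -21 to 79.5 bp, so that its sign turned. Peaks overlapped by replicate 1, 192 of 255, became 126 of 165 merged, 32 of 32 by score and 55 of 62 without long genes. Those overlapped by replicate 2, 190 of 255, became 32 of 32 by score and 51 of 62 without long genes. The counts follow the smaller number of peaks, and these shares did not fall.

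The B box at genes with a peak, 26.1%, became 50% by score and 37.2% without long genes, and at genes without a peak 15.9% became 23.1% without long genes. With 1 replicate left out these shares ran from 23.3 to 30.6% and from 13.2 to 19.4%. Of genes with the A and B pair, the 87.5% with a peak became 33.3% by score and 100% without long genes. This share was 83.3% by overlap or by summit, and 75% in the other list or without protein-coding starts. With 1 replicate left out it was 70.8 to 75%. Of genes without the pair, the 48.1% with a peak became 39.4% by overlap, 60.6% within 500 bp, 34.8% by summit and 6.83% by score. It was 52.8% in the other list, 40.1% without protein-coding starts, 69.8% without long genes and 41.3 to 43.2% with 1 replicate left out. No paired analysis was possible because the 2 replicates form 1 group with no contrast. Unknown depth limits how weak peaks can be read.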

Other observations

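The other ranked list of the series gave 270 peaks at 188 snoRNA genes. Of these peaks 13 were past its threshold, at 12 genes, against 60 of all its 35451 nuclear ranked peaks. Of these 12 genes, 10 were among the 17 genes assigned a peak past the threshold above. The other 2 were Y53F4B.48, with a signal of 89.1, and W01C9.6 in glb-27, with 78.4. Both held H/ACA letters, so the finding of 0 such genes past the threshold above depends on the list.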
